A study of Homo sapiens with 6 samples.

Results

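Complex I (NADH:ubiquinone oxidoreductase) was followed here through the protein-coding genes whose symbols begin with NDUFA, NDUFB, NDUFC, NDUFS, NDUFV or NDUFAF, in HEK293T cells given a PRMT1 plasmid and in control cells. Of 57500 genes, 47 with such symbols are described. They were split into 36 subunits of the enzyme, 8 assembly factors named NDUFAF1 to NDUFAF8, and 3 genes set apart. Of these 36 subunits, 6 belong to the catalytic core and 30 are accessory. The genes set apart are NDUFA4, which is now counted as a subunit of complex IV, its paralog NDUFA4L2, and NDUFC2-KCTD14, a readthrough of 2 neighbouring genes.

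Complex I is the entry point of electrons into the mitochondrial respiratory chain. Its N module takes electrons from NADH, its Q module passes them along iron-sulfur clusters to ubiquinone, and its membrane arm pumps protons. The membrane arm has a proximal part next to the Q module and a distal part, and the most hydrophobic core subunits are encoded in mitochondrial DNA. All other subunits are encoded in the nucleus, imported and joined module by module. Assembly factors stabilise, modify or join these intermediates and do not remain in the finished enzyme.

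The study concerns how acetylation and ubiquitination set the level of PRMT1, a methyltransferase that adds asymmetric dimethyl marks to arginine residues of proteins. Polyadenylated RNA was sequenced from 3 PRMT1 OV libraries and 3 Mock libraries of HEK293T, an established line from human embryonic kidney. The PRMT1 OV cells had received PRMT1 in the expression plasmid pcDNA3 with the PolyJet reagent, and their genotype is given as PRMT1 OV. The Mock cells are labelled as a vector control of WT genotype. The protocol describes a transfection for the PRMT1 condition alone, so whether the Mock cells received plasmid and reagent, the time after transfection, and whether the 3 libraries of a group came from separate cultures were not given in the sources used here. The p-values therefore cover the spread of these libraries only, and part or all of it may be technical. Values are TPM, transcript levels corrected for gene length and scaled to the same total in each library.

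PRMT1 itself had 71656, 62895 and 84923 TPM in PRMT1 OV and 378, 397 and 368 TPM in Mock, a ratio of means of 192. A gene that takes this share lowers the TPM of all others. Despite this, the median over the 15341 tested genes was a log2 change of 0.30 as deposited, and 0.01 after median-of-ratios scaling. Changes of the complex I genes are therefore given as deposited and also relative to this shift. TPM keeps no depth, but whole reads could be recovered from the low values, 18196827 to 23163768 per library. PRMT1 OV replicate 2 and Mock replicate 3 stood apart from the other libraries of their groups. Pairs that held one of them had a median chi-square per gene, over recovered reads, of 3.65 to 4.52, against 1.22 between the other PRMT1 OV libraries, 1.01 between the other Mock libraries and 0.455 under counting noise. All 8 markers of HEK293 cells reached 1 TPM, and their sum was 669 to 728 TPM in PRMT1 OV and 922 to 1027 TPM in Mock. NEFL (153 to 173 TPM in PRMT1 OV, 192 to 237 TPM in Mock) and NEFM (288 to 348 TPM in PRMT1 OV, 492 to 616 TPM in Mock) were lower in PRMT1 OV without overlap. INA was higher (10.6 to 12.7 TPM in PRMT1 OV, 6.87 to 9.09 TPM in Mock), and the groups overlapped for the other 5. Of 9 markers of other cell types, COL1A1 and MYH6 reached 1 TPM, CD3E was at 0 in every library, and the sum over the 9 was 21.5 to 27.0 TPM in PRMT1 OV and 28 to 36.9 TPM in Mock. Their part in the results was not tested. In bulk RNA, fewer cells that express a gene and less RNA per cell cannot be told apart.

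Nuclear complex I subunits leaned towards lower levels in PRMT1 OV cells while most tested genes leaned higher, and the assembly factors split. Among the 36 subunits, 10 fell, 1 rose and 25 did not pass the test (limma on log2(TPM + 1), Benjamini-Hochberg adjusted p under 0.05). That is 27.8% lower and 2.78% higher, beside 8.64% lower and 40.3% higher among all tested genes. Under quantile normalization the share lower was 19.4% both for the subunits and for all tested genes. The median subunit had a log2 change of -0.15, which is -0.46 relative to the shift of all tested genes, and the median stayed negative under each scaling tried. Among the 8 assembly factors, 5 rose, 2 fell and 1 did not pass. Their median was 0.43, or 0.13 relative to all tested genes, and it was -0.05 after GC correction and -0.0029 under quantile normalization. Both of these also take out the shift of all tested genes. Relative to all tested genes, the median was then -0.03 and 0.01. NDUFAF1 (log2 fold change 1.43) had the largest rise of the 44 genes and NDUFAF3 (-0.68) the largest fall.

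**Figure D1:**
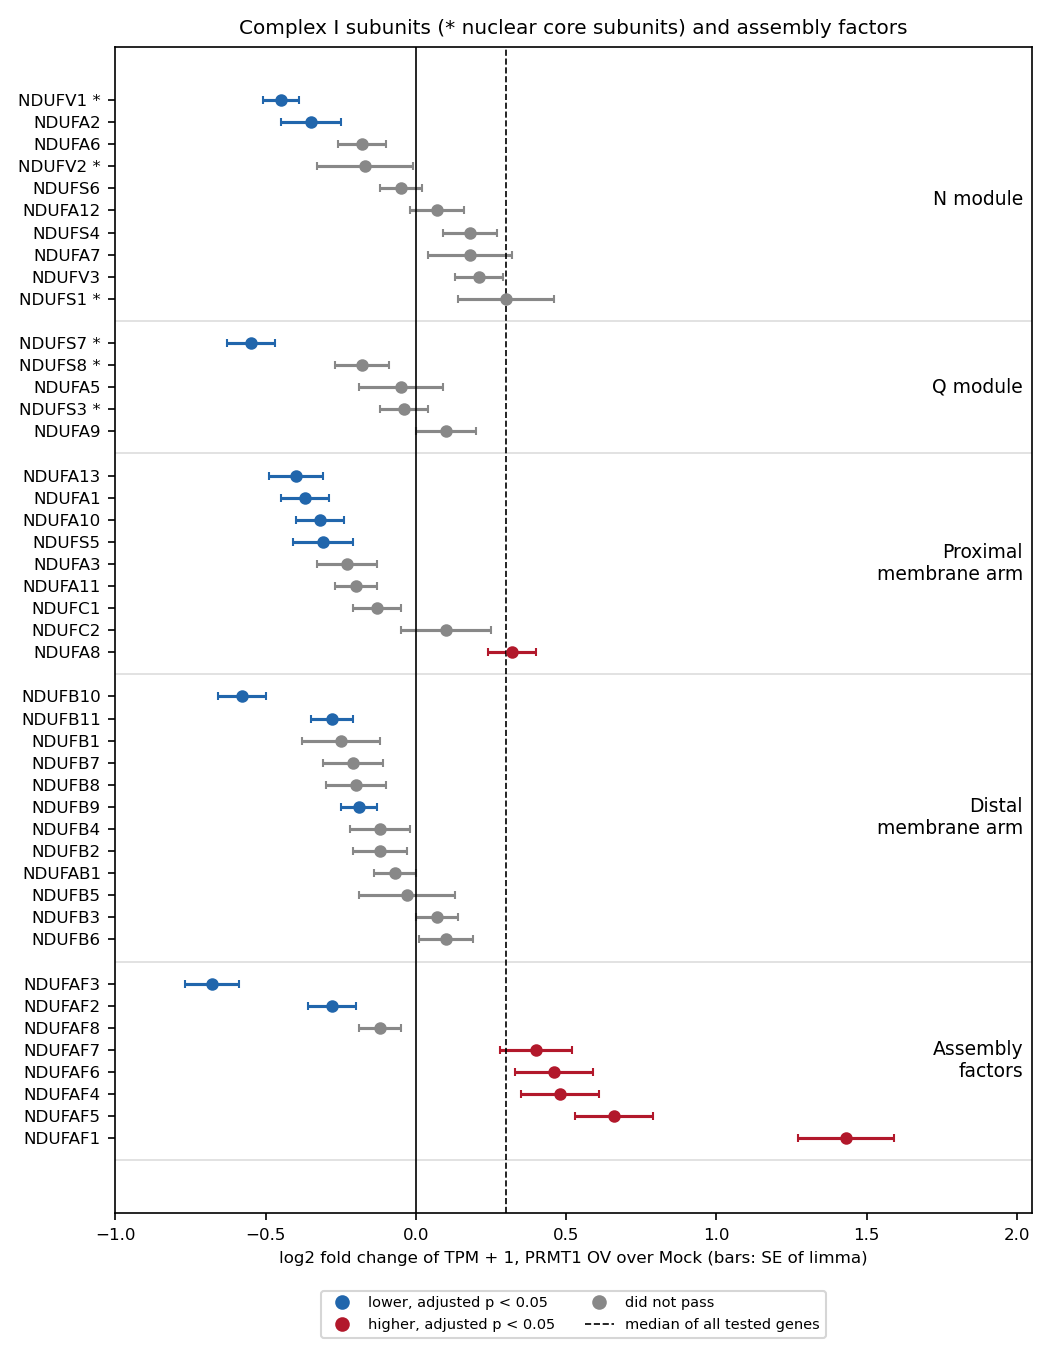
Log2 fold changes of TPM + 1, PRMT1 OV over Mock, for 36 complex I subunits by module and 8 assembly factors. Points are limma estimates with their SE, blue and red mark adjusted p under 0.05, stars mark core subunits, and the dashed line is the median of all tested genes (0.30). Subunits lie between -0.58 and 0.32, and NDUFAF1 stands at 1.43.

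The promoters of 4 subunits are shown here because these genes are the lowest pair and the highest pair in fold change among the subunits present in the promoter table: NDUFB10 and NDUFS7 below, NDUFA8 and NDUFS1 above. Sequences are RefSeq's on GRCh38.p14, 5′ to 3′ on the strand of the gene, with 250 bases before the annotated start and 50 after it. Capitals mark matches to motifs of 3 factors known to bind promoters of respiratory genes, searched on both strands: CGCATGCG for NRF1, which reads the same on both strands, CCGGAAG for ETS factors and AAGATGGCG for YY1.
NDUFB10, chr16:1959288-1959587, plus strand: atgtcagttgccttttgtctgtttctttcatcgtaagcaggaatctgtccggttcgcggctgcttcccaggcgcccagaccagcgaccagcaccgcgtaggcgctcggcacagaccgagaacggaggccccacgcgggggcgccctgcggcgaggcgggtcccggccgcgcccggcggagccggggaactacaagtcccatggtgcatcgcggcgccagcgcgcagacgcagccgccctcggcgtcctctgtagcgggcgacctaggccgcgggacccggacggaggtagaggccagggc
NDUFS7, chr19:1383657-1383956, plus strand: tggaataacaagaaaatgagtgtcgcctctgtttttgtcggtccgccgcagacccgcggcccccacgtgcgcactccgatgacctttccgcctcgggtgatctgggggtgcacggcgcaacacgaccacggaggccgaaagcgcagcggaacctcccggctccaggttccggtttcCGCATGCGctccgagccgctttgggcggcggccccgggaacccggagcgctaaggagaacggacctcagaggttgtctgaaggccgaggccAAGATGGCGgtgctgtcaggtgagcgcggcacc
NDUFA8, chr9:122159730-122160029, minus strand: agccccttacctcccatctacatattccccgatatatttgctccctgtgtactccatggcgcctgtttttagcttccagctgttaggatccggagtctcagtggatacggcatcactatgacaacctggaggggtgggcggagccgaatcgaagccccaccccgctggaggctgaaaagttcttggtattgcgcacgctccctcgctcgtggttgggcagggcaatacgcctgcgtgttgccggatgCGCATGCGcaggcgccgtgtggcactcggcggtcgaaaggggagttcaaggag
NDUFS1, chr2:206159395-206159694, minus strand: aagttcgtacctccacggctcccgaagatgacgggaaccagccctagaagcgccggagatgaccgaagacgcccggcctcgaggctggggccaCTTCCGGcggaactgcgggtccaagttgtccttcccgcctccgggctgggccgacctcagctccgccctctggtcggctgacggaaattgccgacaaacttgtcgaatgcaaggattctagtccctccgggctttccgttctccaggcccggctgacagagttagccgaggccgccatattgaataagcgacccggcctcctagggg

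Of these 4 windows, that of NDUFS7 held the NRF1 and the YY1 letters, that of NDUFA8 the NRF1 letters and that of NDUFS1 the ETS letters on the minus strand of the gene. NDUFS7, which fell, and NDUFA8, which rose, thus both carried the NRF1 letters. The table held promoters for 40 of the 47 genes, 32 of them subunits and 7 of them assembly factors. The NRF1 letters occurred in 4 of 32 subunit promoters (12.5%) and 1 of 7 assembly factor promoters, beside 4.0% of 10624 promoters of tested genes and 2.19% of all 27305 promoters. The YY1 letters occurred in 5 subunit promoters (15.6%) and in 0 of 7 for the assembly factors, beside 4.09% for tested genes and 1.85% for all. ETS letters were found in 5 subunit promoters (15.6%) and 1 assembly factor promoter, beside 19.4% and 10.7%. Subunits with the NRF1 letters had log2 fold changes of -0.55 (NDUFS7), -0.12 (NDUFB4), -0.05 (NDUFS6) and 0.32 (NDUFA8). The genes with a given motif thus lay on both sides of 0. These matches describe letters in a window and do not show that a factor binds there.

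The assembly factors were examined gene by gene. NDUFAF1 (ENSG00000137806, GRCh38 chromosome 15, 41387349 to 41402519, minus strand) is a member of the MCIA complex, which builds the part of the proximal membrane arm around the mitochondrially encoded subunit ND2. It had 32.6, 36.8 and 25.9 TPM in PRMT1 OV and 9.37, 10.7 and 13.3 TPM in Mock. All PRMT1 OV libraries lay above all Mock libraries. The means were 31.7 ± 5.53 TPM in PRMT1 OV and 11.1 ± 1.97 TPM in Mock (SD, n = 3 each), a ratio of 2.86. The log2 fold change was 1.43 (SE 0.16, adjusted p = 0.000495), and the call of higher held under every alternative run, with adjusted p at most 0.00333. After median-of-ratios scaling the change was 1.10. No exonic bases of NDUFAF1 were shared with another annotated gene, and its count was between 105 and 425 recovered reads per library.

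NDUFAF3 (ENSG00000178057, chromosome 3, 49020459 to 49023495, plus strand) binds the early Q module together with NDUFAF4. NDUFAF3 had 149, 136 and 157 TPM in PRMT1 OV and 226, 221 and 265 TPM in Mock. The groups did not overlap. On the log2 scale the change was -0.68 (SE 0.09, adjusted p = 0.0011), and it was -1.03 after median-of-ratios scaling. This call also held under every alternative run, with adjusted p at most 0.00587. Of its exonic bases, 21.7% are shared with DALRD3 on the opposite strand, which averaged 18.12 TPM in PRMT1 OV and 22.03 TPM in Mock. Without a stated strand setting, reads from such a pair cannot be told apart.

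NDUFAF4, the partner of NDUFAF3, had 25.4, 30.4 and 22.8 TPM in PRMT1 OV and 16.2, 19.3 and 20 TPM in Mock. The groups did not overlap, and NDUFAF4 lay higher in PRMT1 OV, opposite to its partner. Its log2 fold change was 0.48 (SE 0.13, adjusted p = 0.0183), but 0.14 (adjusted p = 0.397) after median-of-ratios scaling and -0.06 after GC correction. The 2 partners thus had calls in opposite directions in the deposited TPM, and for NDUFAF4 the call was absent under those scalings. It was also absent under quantile normalization and without Mock replicate 1 (adjusted p at most 0.656 over all alternatives).

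NDUFAF5 hydroxylates an arginine of NDUFS7 in the Q module. NDUFAF5 had 7.38, 8.88 and 7.34 TPM in PRMT1 OV and 5.13, 4.53 and 4.19 TPM in Mock. Each PRMT1 OV library was above each Mock library. The log2 fold change was 0.66 (SE 0.13, adjusted p = 0.00437) and 0.35 after median-of-ratios scaling (adjusted p = 0.0197), while it was 0.19 both after GC correction (adjusted p = 0.0872) and under quantile normalization (adjusted p = 0.158). NDUFAF8, which stabilises NDUFAF5, had 108, 96.4 and 101 TPM in PRMT1 OV and 107, 109 and 116 TPM in Mock. Its groups overlapped, and the difference of -0.12 did not pass (adjusted p = 0.222). NDUFS7, the subunit modified by NDUFAF5, is among the lowest subunits described further on.

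NDUFAF7 is itself a protein arginine methyltransferase. It works in the mitochondrial matrix and places symmetric dimethyl marks. NDUFAF7 had 16.5, 14.6 and 13.7 TPM in PRMT1 OV and 9.71, 12.5 and 11 TPM in Mock. The groups were separate, with the lowest PRMT1 OV value near the highest Mock value. Its log2 fold change of 0.40 (SE 0.12, adjusted p = 0.0274) lay within 1 SE of the median of all tested genes, and it was 0.07 after median-of-ratios scaling, -0.03 after GC correction and -0.00015 under quantile normalization. The NDUFAF7 call was absent under these 3 scalings and when Mock replicate 1, Mock replicate 3, PRMT1 OV replicate 1 or PRMT1 OV replicate 2 was left out (adjusted p up to 0.999). Small parts of its exons overlap CEBPZ (2.3%) and PRKD3 (7.3%) on the opposite strand. CEBPZ averaged 59.22 TPM in PRMT1 OV and 19.45 TPM in Mock, and PRKD3 averaged 15.05 TPM in PRMT1 OV and 6.6 TPM in Mock. Their part in the NDUFAF7 value was not tested.

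NDUFAF6, which is needed for assembly of the Q module, was the least abundant of the 8. It had 4.63, 5.86 and 6.16 TPM in PRMT1 OV and 3.66, 3.61 and 3.94 TPM in Mock. The groups did not overlap, but the lowest PRMT1 OV library was close to the Mock range. On the log2 scale the change was 0.46 (SE 0.13, adjusted p = 0.024), with 0.17 after median-of-ratios scaling and -0.01 under quantile normalization. This call was absent under both, after GC correction, and when Mock replicate 1, Mock replicate 2, PRMT1 OV replicate 2 or PRMT1 OV replicate 3 was left out (adjusted p up to 0.976). NDUFAF2, a paralog of the subunit NDUFA12 that occupies its place until the N module joins, had 116, 123 and 108 TPM in PRMT1 OV and 140, 130 and 152 TPM in Mock. NDUFAF2 did not overlap between groups and had a log2 change of -0.28 (SE 0.08, adjusted p = 0.0256). Its call was absent with PRMT1 left out of the total and without any 1 of Mock replicates 1 and 3 and PRMT1 OV replicates 1 and 3 (adjusted p up to 0.101). NDUFA12 itself averaged 147 ± 6.72 TPM in PRMT1 OV and 140 ± 16.9 TPM in Mock (SD, n = 3 each), with overlapping libraries.

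**Figure D2:**
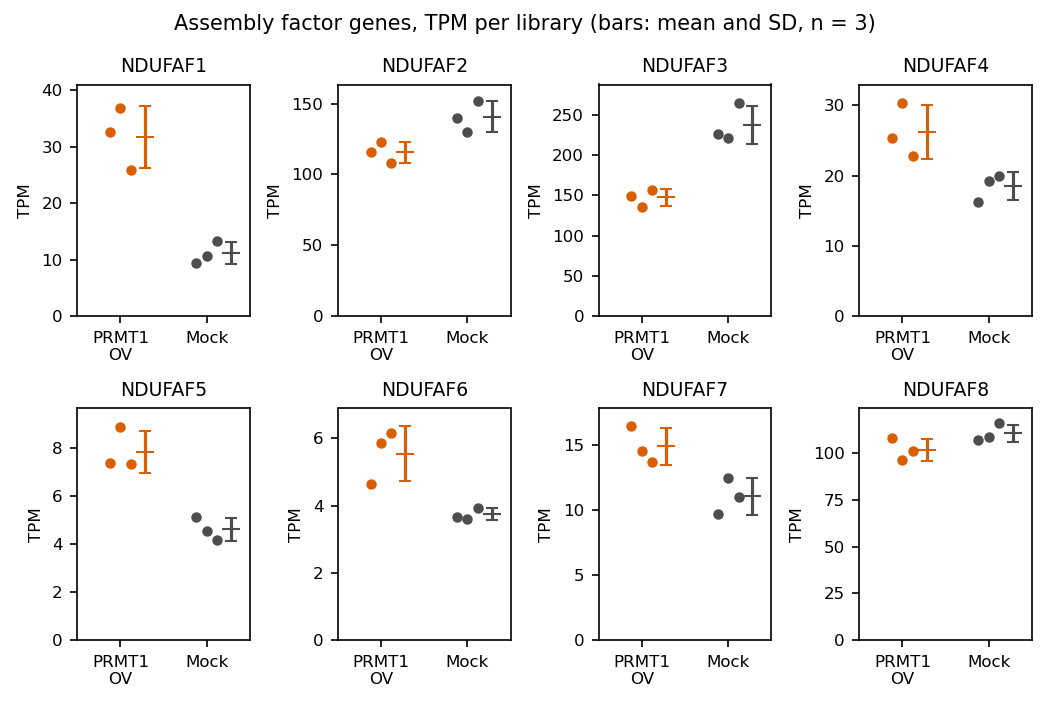
TPM of the 8 assembly factors in each library, PRMT1 OV on the left and Mock on the right of each panel, with the mean and SD of 3 libraries. The groups are separate in 7 panels and overlap for NDUFAF8. Without overlap, 5 genes (62.5%) are higher and 2 (25.0%) lower in PRMT1 OV, beside 49.8% and 11.6% of all tested genes.

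The order of the assembly factors by level was almost the same in both groups, with 1 exception. In PRMT1 OV the means ran NDUFAF3, NDUFAF2, NDUFAF8, NDUFAF1, NDUFAF4, NDUFAF7, NDUFAF5 and NDUFAF6, which is 148 TPM at the top and 5.55 TPM at the bottom. In Mock, NDUFAF4 stood above NDUFAF1 and NDUFAF7, which averaged 11.1 TPM each and did not differ beyond their spread. NDUFAF1 made up 5.84 to 8.15% of the summed TPM of the 8 genes in PRMT1 OV and 1.81 to 2.26% in Mock. NDUFAF3 made up 30.1 to 35.6% in PRMT1 OV and 43.2 to 45.3% in Mock. The sum over the 8 genes was 451 ± 8.61 TPM in PRMT1 OV and 538 ± 41.3 TPM in Mock (SD, n = 3 each), so the sum was lower although 5 of its 8 members were higher. The 3 most abundant, NDUFAF3, NDUFAF2 and NDUFAF8, were the 3 with negative fold changes.

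The core subunits include those that carry the redox centres. In the N module, NDUFV1 binds the flavin that takes electrons from NADH. NDUFV1 (ENSG00000167792, chromosome 11, 67605653 to 67612554, plus strand) had 176, 173 and 185 TPM in PRMT1 OV and 244, 253 and 233 TPM in Mock. The groups were well apart. The log2 fold change was -0.45 (SE 0.06, adjusted p = 0.00128). NDUFV2, which holds an iron-sulfur cluster beside it, had 23.5, 32.3 and 25.0 TPM in PRMT1 OV and 32.5, 24.4 and 34.7 TPM in Mock. The NDUFV2 groups overlapped, with PRMT1 OV replicate 2 high and Mock replicate 2 low within their own groups (-0.17, limma adjusted p = 0.406). By limma, NDUFV2 was called lower after median-of-ratios scaling (-0.52), GC correction (-0.56) and quantile normalization (-0.46). The adjusted p of limma were 0.0331, 0.0248 and 0.0497 in that order.

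NDUFS1, the largest subunit and the carrier of several iron-sulfur clusters of the N module, had 32.2, 37.9 and 33.1 TPM in PRMT1 OV and 31.0, 32.2 and 21.4 TPM in Mock. Mock replicate 3 was the low library. The log2 fold change of 0.30 (SE 0.16) equalled the median of all tested genes and did not pass (adjusted p = 0.156), and it was -0.05 after median-of-ratios scaling and -0.14 after GC correction. As deposited, 1 of the 3 core subunits of the N module was thus called lower and 2 did not pass. Whether they differ from each other was not tested.

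In the Q module, NDUFS7 holds the last iron-sulfur cluster on the way to ubiquinone. NDUFS7 (ENSG00000115286, chromosome 19, 1383527 to 1395589, plus strand), whose promoter is printed above, had 42.7, 39.0 and 43.0 TPM in PRMT1 OV and 58.5, 63.0 and 62.1 TPM in Mock. The highest PRMT1 OV library was far below the lowest Mock library. Its log2 fold change was -0.55 (SE 0.08, adjusted p = 0.00121) and -0.90 after median-of-ratios scaling. An antisense gene covers 35.7% of its exonic bases and averaged 1.29 TPM in PRMT1 OV and 0.22 TPM in Mock.

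NDUFS3, another Q module core subunit, had 78.9, 90.6 and 76.8 TPM in PRMT1 OV and 84.5, 83.9 and 84.2 TPM in Mock. Its PRMT1 OV libraries lay on both sides of the Mock range (-0.04, adjusted p = 0.711). NDUFS8, which carries a pair of iron-sulfur clusters, had 98.2, 91.4 and 105 TPM in PRMT1 OV and 113, 100 and 122 TPM in Mock. The NDUFS8 groups overlapped, and the difference did not pass (-0.18, adjusted p = 0.136). By limma, NDUFS3 and NDUFS8 were both called lower after median-of-ratios scaling (-0.39 and -0.54) and GC correction (-0.31 and -0.3). Neither passed under quantile normalization (-0.12 and -0.22). Across the 6 core subunits, 2 fell, 0 rose and 4 did not pass, with a median of -0.18. By the unadjusted p of limma, 2 were lower and 0 higher. Of 30 accessory subunits, 8 fell and 1 rose, with a median of -0.13, so the shares called lower were 33.3% of the core and 26.7% of the accessory subunits, beside 8.64% of all tested genes. These shares were 83.3% and 73.3% after median-of-ratios scaling, beside 24.1%, and 3 of 6 core and 4 of 30 accessory subunits were lower under quantile normalization, beside 19.4%. Whether core and accessory subunits differ was not tested.

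**Figure D3:**
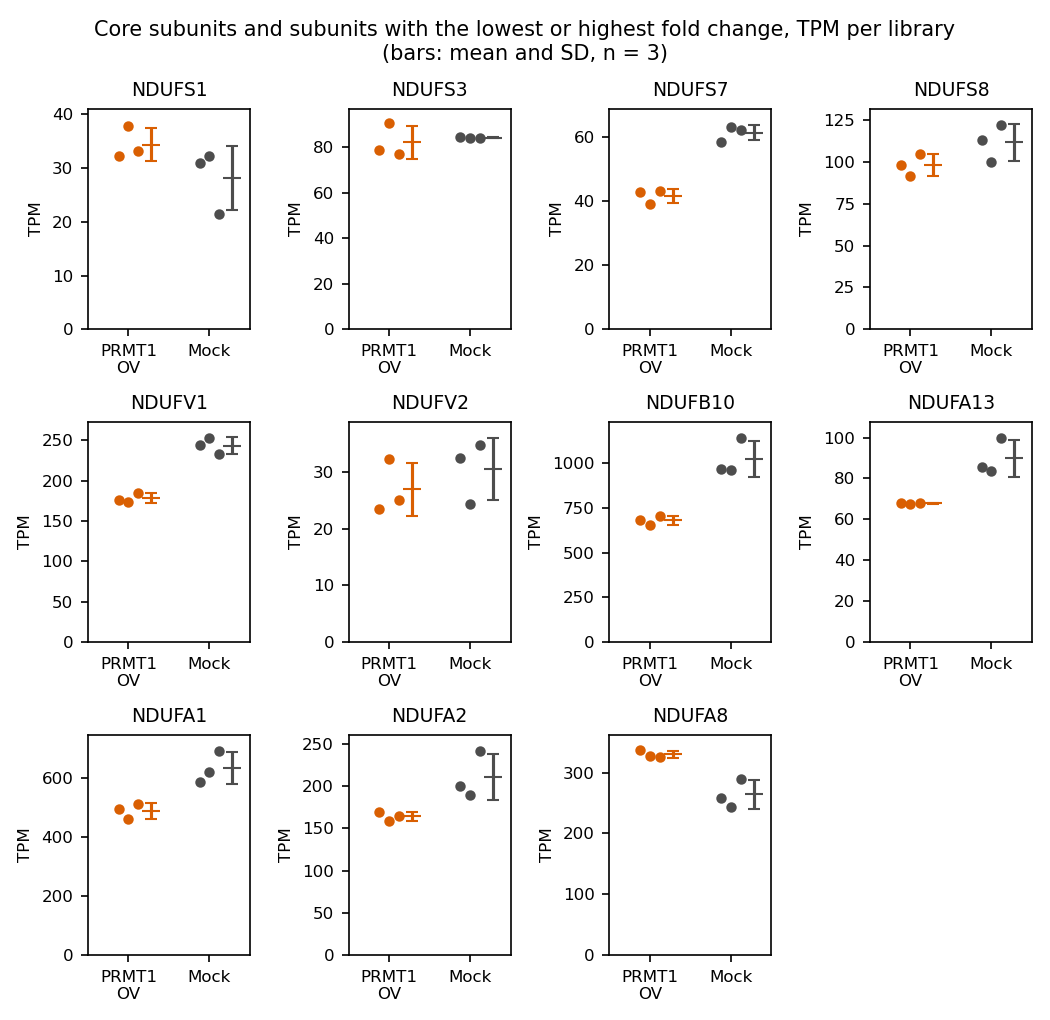
TPM in each library, PRMT1 OV left and Mock right, with the mean and SD of 3 libraries, for 6 core subunits, the accessory subunits NDUFB10, NDUFA13, NDUFA1 and NDUFA2 with low fold changes, and NDUFA8. NDUFS7, NDUFV1, NDUFB10, NDUFA13, NDUFA1 and NDUFA2 lie lower in all PRMT1 OV libraries than in all Mock libraries, and NDUFA8 lies higher.

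Among the accessory subunits, the 3 lowest fold changes were in the membrane arm. NDUFB10 (ENSG00000140990, chromosome 16, 1959508 to 1961975, plus strand), a subunit of the distal arm facing the intermembrane space, had 684, 655 and 705 TPM in PRMT1 OV and 968, 964 and 1138 TPM in Mock. No library of one group came near the other group. The means were 681 ± 25.1 TPM in PRMT1 OV and 1023 ± 99.4 TPM in Mock (SD, n = 3 each). Its log2 fold change of -0.58 (SE 0.08, adjusted p = 0.000996) was the lowest of the 36 subunits. By TPM, NDUFB10 was also the second most abundant subunit in both groups.

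NDUFA13, also known as GRIM-19 and part of the proximal arm, had 68.1, 67.4 and 67.8 TPM in PRMT1 OV and 85.6, 83.8 and 100.0 TPM in Mock. The PRMT1 OV libraries were nearly equal and all below Mock. On the log2 scale the change was -0.40 (SE 0.09, adjusted p = 0.00679). NDUFB10, NDUFS7, NDUFV1 and NDUFA13 were the 4 subunits whose calls held under every alternative run, with adjusted p at most 0.0268.

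NDUFA1, a small X-linked membrane subunit, had 495, 461 and 514 TPM in PRMT1 OV and 588, 622 and 695 TPM in Mock. The groups did not overlap, and the log2 fold change was -0.37 (SE 0.08, adjusted p = 0.00667), but -0.15 (adjusted p = 0.208) under quantile normalization. RNF113A shares 44.5% of the exonic bases of NDUFA1 on the opposite strand and averaged 101.65 TPM in PRMT1 OV and 79.99 TPM in Mock. NDUFA2, an N module subunit with a thioredoxin-like fold, had 169, 159 and 164 TPM in PRMT1 OV and 200, 190 and 242 TPM in Mock. Its libraries were separate too, with a log2 change of -0.35 (SE 0.10, adjusted p = 0.0186). The NDUFA2 call was absent under quantile normalization, with PRMT1 left out of the total, and without PRMT1 OV replicate 2 (adjusted p at most 0.0675).

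NDUFA8, an intermembrane space subunit held by disulfide bonds, was the 1 subunit that rose. NDUFA8 (ENSG00000119421, chromosome 9, 122144058 to 122159819, minus strand) had 337, 327 and 325 TPM in PRMT1 OV and 258, 244 and 290 TPM in Mock. The groups were separate. Its log2 fold change of 0.32 (SE 0.08, adjusted p = 0.0103) lay beside the median of all tested genes, and it was -0.03 after median-of-ratios scaling, 0.02 after GC correction and 0.45 under quantile normalization. The call was absent under the first 2 of these (adjusted p up to 0.893). NDUFV3, a small N module subunit, had 28.3, 28.9 and 29.3 TPM in PRMT1 OV and 24.5, 23.5 and 26.4 TPM in Mock. NDUFV3 did not overlap between groups but missed the threshold (0.21, limma adjusted p = 0.064), and its sign was negative after median-of-ratios scaling (-0.13), GC correction (-0.11) and quantile normalization (-0.09). NDUFA7, another accessory subunit of the N module, had 22.8, 24.5 and 19.4 TPM in PRMT1 OV and 16.2, 20.4 and 22.1 TPM in Mock. Its groups overlapped, and the change of 0.18 did not pass (limma adjusted p = 0.313).

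By module, the counts called lower were 2 of 10 in the N module, 1 of 5 in the Q module, 4 of 9 in the proximal membrane arm and 3 of 12 in the distal membrane arm, beside 8.64% of all tested genes. After median-of-ratios scaling these counts were 5, 4, 7 and 11, beside 24.1%, and after GC correction 5, 5, 7 and 11, beside 25.4%. Under quantile normalization they were 2, 1, 3 and 1, beside 19.4%, and with PRMT1 left out of the total 1, 1, 2 and 1, beside 5.68%. NDUFA8, in the proximal arm, was the only subunit called higher. Median log2 fold changes were 0.01 for the N module, -0.05 for the Q module, -0.23 for the proximal arm and -0.16 for the distal arm. Relative to all tested genes these medians were -0.29, -0.36, -0.54 and -0.46, so each module lay below that median, as it did under the other 4 scalings. The sign of the plain medians was less firm, since the N module was at -0.35 and the Q module at -0.40 after median-of-ratios scaling and at 0.12 and 0.05 with PRMT1 left out of the total. Whether the modules differ from each other was not tested. The other 4 subunits called lower were NDUFA10 (-0.32), with a nucleoside kinase-like fold, NDUFS5 (-0.31), a disulfide-bonded subunit, NDUFB11 (-0.28), which is X-linked, and NDUFB9 (-0.19), which binds the acyl carrier subunit NDUFAB1. Each of these 4 lost its call with PRMT1 left out of the total (adjusted p of 0.0627 to 0.27). Under quantile normalization NDUFS5, NDUFB11 and NDUFB9 also lost it (limma adjusted p of 0.787, 0.378 and 0.343), and NDUFA10 kept it. Leaving out 1 library also ended the call of NDUFA10 (Mock replicate 1 or 2, PRMT1 OV replicate 1), NDUFS5 (Mock replicate 3, PRMT1 OV replicate 1 or 2) and NDUFB9 (Mock replicate 1 or 2, PRMT1 OV replicate 1 or 3). The 21 accessory subunits that did not pass had log2 fold changes of -0.25 (NDUFB1) to 0.21 (NDUFV3).

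Libraries of 13 subunits were lower in all of PRMT1 OV than in all of Mock and those of 2 were higher, which is 36.1% and 5.56%, beside 11.6% and 49.8% of all tested genes. NDUFA3, NDUFA6 and NDUFA11 were the 3 of the 13 that did not pass the test (adjusted p = 0.0876, 0.0895 and 0.0571). Of the 36 fold changes, 26 were negative and 10 positive (72.2% and 27.8%), beside 27.5% and 72.5% over all tested genes. Of the genes set apart, NDUFA4 averaged 142 ± 7.4 TPM in PRMT1 OV and 158 ± 5.57 TPM in Mock (SD, n = 3 each), with a log2 change of -0.15 that did not pass (adjusted p = 0.0992). NDUFA4 was called lower by limma after median-of-ratios scaling (-0.51, adjusted p = 0.00279) and GC correction (-0.66, adjusted p = 0.00153). NDUFA4L2 averaged 1.22 TPM in PRMT1 OV and 1.66 TPM in Mock and did not pass as deposited (-0.25, adjusted p = 0.283). Under quantile normalization NDUFA4L2 was called lower (-0.67, limma adjusted p = 0.0192). The readthrough NDUFC2-KCTD14 was listed at 0 except for 0.563 TPM in PRMT1 OV replicate 2, about 3 recovered reads, and was the 1 of the 47 genes that did not reach the filter of 1 TPM in 3 libraries.

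The levels of the subunits spanned a wide range, with nearly the same order in both groups. Per length, NDUFS5 was the most abundant subunit, with 1443 ± 121 TPM in PRMT1 OV and 1793 ± 208 TPM in Mock (SD, n = 3 each). NDUFA7 was the least abundant, with 22.2 ± 2.62 TPM in PRMT1 OV and 19.6 ± 3.06 TPM in Mock. Of the exonic bases of NDUFA7, 32.3% are shared with another gene on the same strand and 6.3% with RPS28 on the opposite strand. RPS28 averaged 983.35 TPM in PRMT1 OV and 1315.81 TPM in Mock. This order depends on the exonic lengths: NDUFV1 (5057 bases) had 5350 to 7735 recovered reads per library and NDUFS5 (548 bases) 4602 to 6529. The ratio of highest to lowest mean was 64.9 in PRMT1 OV and 91.7 in Mock. Spearman's rho between the 36 means of the 2 groups was 0.988, a description over genes that share libraries. Summed over the 36 subunits, the level was 6771, 6432 and 6807 TPM in PRMT1 OV and 7539, 7552 and 8520 TPM in Mock. Every PRMT1 OV sum was below every Mock sum. As a percent of the TPM outside PRMT1, the sums were 0.729, 0.686 and 0.744 in PRMT1 OV and 0.754, 0.755 and 0.852 in Mock. On this scale the groups were still separate, with PRMT1 OV replicate 3 close to Mock replicate 1. The ratio of the subunit sum to the assembly factor sum was 14.2 to 15.4 in PRMT1 OV and 14.6 to 14.8 in Mock, so the ranges overlapped.

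The fold changes varied with base composition and with level. The 10 subunits that fell had a median GC content of 56.5% in their transcripts (47.5 to 64.8%), and the 25 that did not pass had 47.1% (36.0 to 65.0%). The 5 assembly factors that rose had 43.4% (37.3 to 47.5%). NDUFAF3, which fell, had 62.1%, but NDUFAF2, which also fell, had 42.5%. Over the 36 subunits, Pearson's r between log2 fold change and GC content was -0.56, and over all tested genes it was -0.22. With log2 mean TPM, Pearson's r was -0.41 over the subunits, -0.71 over the assembly factors and -0.24 over all tested genes. These are correlations across genes of the same libraries. The median level was 104 TPM for the subunits and 9.77 TPM for all tested genes, and the part of level in the calls was not tested. All tested genes below 45% GC had a median log2 fold change of 0.45, and those above 60% had 0.06. The subunits in these GC ranges had medians of 0.07 (9 genes) and -0.21 (5 genes), so both lay below all tested genes of the same range. After GC correction, limma called 28 subunits lower and 0 higher (0 also by the unadjusted p), beside 25.4% lower and 23.4% higher of 15276 genes. This correction also took out the shift of all tested genes, whose median was 0.304 as deposited and -0.019 after it. Median-of-ratios scaling, which does not use GC content, called 27 subunits lower. The part of GC content in each call was therefore not separated from this shift and was not tested further.

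**Figure D4:**
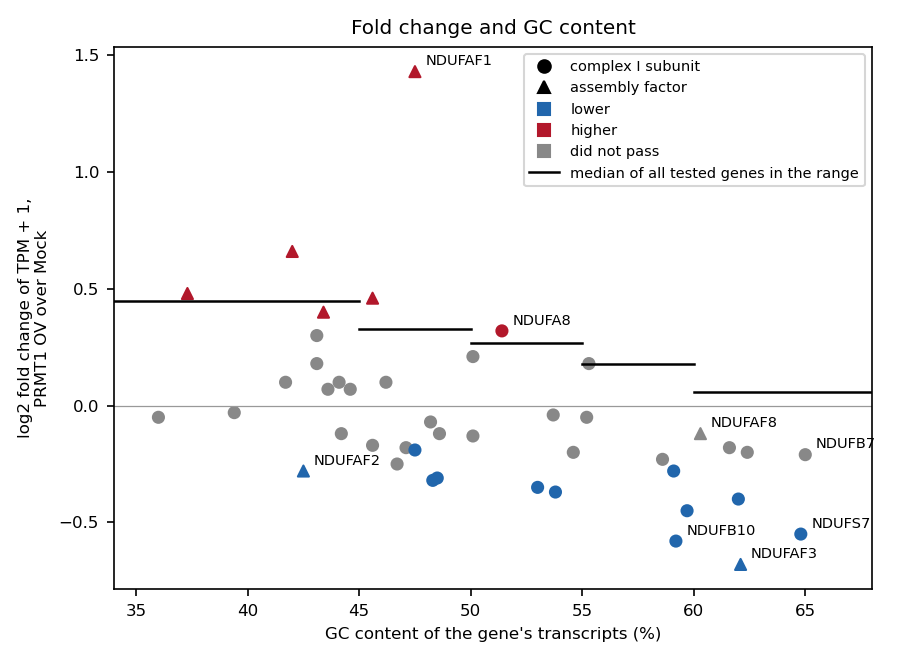
Log2 fold change of TPM + 1, PRMT1 OV over Mock, against GC content of the transcripts for 36 subunits (circles) and 8 assembly factors (triangles). Black lines are medians of all tested genes in 5 ranges of GC content, from 0.45 below 45% to 0.06 above 60%, and most subunits lie below the line of their range.

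The number of complex I genes called depended on the scaling. As deposited, 10 subunits fell and 1 rose, and by the unadjusted p of limma 12 were lower and 2 higher. After median-of-ratios scaling, 27 fell and 0 rose by limma, 0 also by the unadjusted p, beside 24.1% lower and 23.5% higher of all tested genes. Under quantile normalization, 7 fell and 1 rose, which is 19.4% and 2.78%, beside 19.4% and 20.3% of all tested genes. The share lower was thus the same as that of all tested genes under this scaling. With PRMT1 left out of the total, 5 fell and 4 rose, beside 5.68% and 49.1% of all tested genes. Without PRMT1 OV replicate 2 and Mock replicate 3, 12 fell and 4 rose, beside 13.8% and 37.2% of all tested genes. Relative to all tested genes, the median of the subunits was -0.51 after median-of-ratios scaling and -0.14 under quantile normalization. For the assembly factors, calls of higher and lower were 2 and 3 after median-of-ratios scaling, 1 and 2 under quantile normalization, 1 and 3 after GC correction, and 5 and 1 with PRMT1 left out of the total. NDUFAF1 was called higher and NDUFAF3 lower in each of these.

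**Figure D5:**
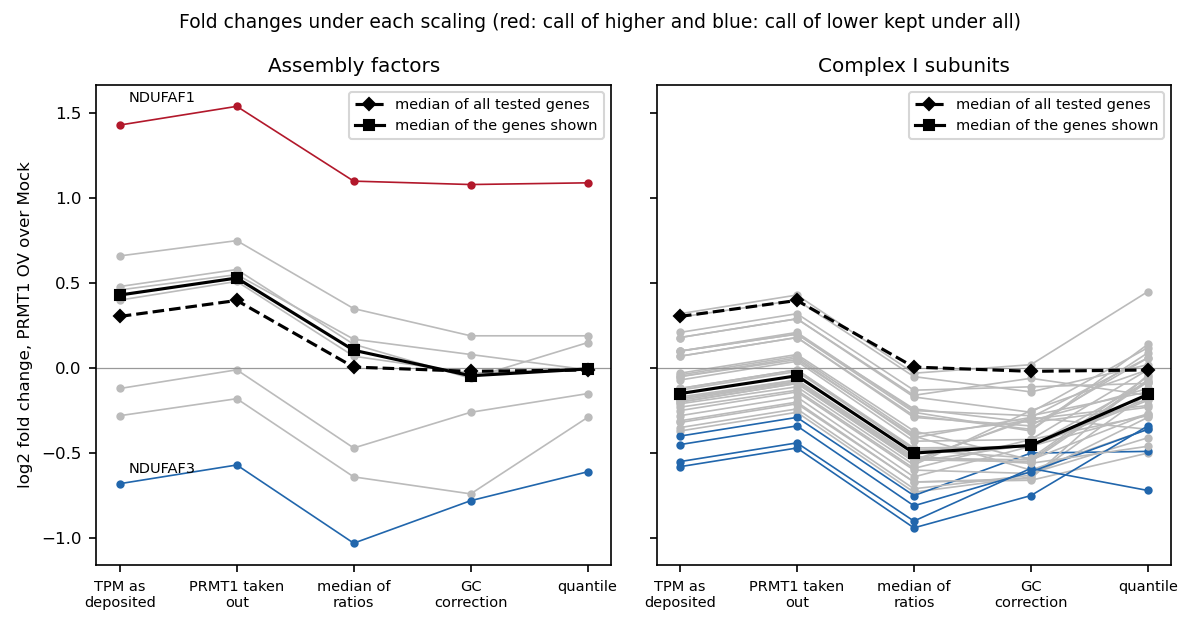
Log2 fold changes, PRMT1 OV over Mock, of the assembly factors (left) and subunits (right) under 5 scalings. The solid black line is the median of the genes shown, the dashed line that of all tested genes, and red and blue lines are genes whose call held under all 5: NDUFAF1 higher, and NDUFAF3, NDUFB10, NDUFS7, NDUFV1 and NDUFA13 lower. The median of the assembly factors is 0.43 as deposited and -0.05 after GC correction, beside 0.30 and -0.02 for all tested genes.

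Assembly factors with other symbols also had calls in both directions. Of 12 such genes, 4 rose, 1 fell and 7 did not pass, which is 33.3% higher and 8.33% lower, beside 40.3% and 8.64% of all tested genes. These shares are near or below those of all tested genes. Calls of higher and lower were 2 and 3 after median-of-ratios scaling, 2 and 4 after GC correction and 3 and 2 under quantile normalization. Among all tested genes the shares were, in the same order, 23.5% and 24.1%, 23.4% and 25.4%, and 20.3% and 19.4%. With PRMT1 left out of the total, 6 were called higher and 0 lower by limma (0 also by the unadjusted p). Among all tested genes these shares were 49.1% and 5.68%. The median was 0.11 as deposited and -0.24 after median-of-ratios scaling. TMEM186, which works with NDUFAF1 in the MCIA complex, had 18.1, 16.2 and 17.1 TPM in PRMT1 OV and 3.15, 4.83 and 5.09 TPM in Mock. The groups were far apart, with a log2 change of 1.78 (SE 0.16, adjusted p = 0.000221). TMEM186 had only 39 to 234 recovered reads per library. TMEM70, known for assembly of ATP synthase and of complex I, had 32.2, 37.8 and 29.5 TPM in PRMT1 OV and 19.7, 14.9 and 14.7 TPM in Mock. TMEM70 did not overlap between groups (0.98, SE 0.14, adjusted p = 0.0013). TIMMDC1, a membrane arm factor, had 122, 133 and 116 TPM in PRMT1 OV and 99.4, 95.7 and 63.7 TPM in Mock. Mock replicate 3 was low, and the change of 0.54 (adjusted p = 0.0281) was 0.18 after median-of-ratios scaling (adjusted p = 0.259). The other MCIA members did not all follow NDUFAF1 and TMEM186. ACAD9 (0.10, adjusted p = 0.37), ECSIT (0.07, adjusted p = 0.49) and TMEM126B (0.39, adjusted p = 0.0535) did not pass, and COA1 fell (-0.24, adjusted p = 0.0433). With PRMT1 left out of the total, TMEM126B was called higher (0.49, limma adjusted p = 0.0161). COA1 then did not pass (-0.13, limma adjusted p = 0.2). After median-of-ratios scaling, GC correction and quantile normalization, COA1 was called lower and TMEM126B did not pass. ACAD9, ECSIT, TMEM126B and COA1 were named after their values were seen.

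Of the 7 complex I subunits encoded in mitochondrial DNA, 2 fell, 2 rose and 3 did not pass, beside 8.64% lower and 40.3% higher among all tested genes. The count of lower was 2 under each of the 5 scalings. The count of higher by limma was 0 after median-of-ratios scaling and after GC correction (0 under both also by its unadjusted p) and 3 under quantile normalization. Among all tested genes the shares higher were 23.5%, 23.4% and 20.3% in that order. MT-ND1 had 3443, 2378 and 2974 TPM in PRMT1 OV and 8399, 7333 and 10006 TPM in Mock, a log2 change of -1.55 (SE 0.15, adjusted p = 0.000297). MT-ND2, the subunit around which NDUFAF1 and the MCIA complex work, had 2189, 1698 and 1883 TPM in PRMT1 OV and 5258, 4546 and 6161 TPM in Mock. MT-ND2 thus also fell without overlap (-1.46, SE 0.13, adjusted p = 0.000198). MT-ND6 overlapped between groups, with 8907, 6786 and 8446 TPM in PRMT1 OV and 5561, 4849 and 6933 TPM in Mock. It was called higher (0.48, adjusted p = 0.0272), but not after median-of-ratios scaling (0.12, adjusted p = 0.66) or GC correction (0.03, adjusted p = 0.916). MT-ND6 lies on the minus strand, and the other subunits encoded in mitochondrial DNA lie on the plus strand. Without a stated strand setting, reads of MT-ND6 and reads from the opposite strand cannot be told apart.

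Nuclear subunits of complexes II to V leaned the same way as those of complex I, with 22 of 41 lower and 0 higher by limma and 27 lower and 1 higher by its unadjusted p, beside 8.64% lower and 40.3% higher among all tested genes. After median-of-ratios scaling 39 were lower, beside 24.1% of all tested genes, and after GC correction 38, beside 25.4%. Under quantile normalization 8 were lower and 1 higher, a share near the 19.4% lower of all tested genes. With PRMT1 left out of the total 9 were lower and 2 higher, beside 5.68% and 49.1% of all tested genes. Their median was -0.24 as deposited, and it was negative under the other 4 scalings too. The 3 with the smallest p were CYC1 of complex III (-0.46), ATP5MC1 of ATP synthase (-0.54) and COX5A of complex IV (-0.39), with limma adjusted p of 0.000633, 0.000952 and 0.00139. The COX5A call was absent under quantile normalization (-0.16, adjusted p = 0.0752). Transcription regulators of respiratory genes leaned higher, with 8 of 10 tested genes called higher and 0 lower by limma, 8 and 1 by its unadjusted p, and a median of 0.71, or 0.41 relative to all tested genes, of which 40.3% were called higher. Calls of higher and lower were 6 and 2 after median-of-ratios scaling, 5 and 1 under quantile normalization and 4 and 2 after GC correction. Among all tested genes the shares were, in the same order, 23.5% and 24.1%, 20.3% and 19.4%, and 23.4% and 25.4%. NRF1, whose motif was searched above, had 14.8, 16.5 and 15.5 TPM in PRMT1 OV and 9.29, 8.70 and 8.15 TPM in Mock. NRF1 rose without overlap (0.77, SE 0.10, adjusted p = 0.000787). The coactivator PPRC1 rose by 0.72 and TFB1M, which methylates mitochondrial ribosomal RNA, by 0.73, and all 3 calls held after median-of-ratios scaling, GC correction and quantile normalization. PPARGC1A, the coactivator also known as PGC-1 alpha, stayed under 1 TPM in every library and was not tested.

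Overlapping genes and copies limit some of these values. Exonic bases of 24 of the 44 subunit and assembly factor genes were shared with another annotated gene, and 11 shared at least 10% with a gene that averaged at least 1 TPM in a group. Among the subunits called lower, these were NDUFA1, NDUFA13, NDUFB9, NDUFB11 and NDUFS7. RBM10 shares 44.9% of the exonic bases of NDUFB11 on the opposite strand and averaged 94.56 TPM in PRMT1 OV and 66.98 TPM in Mock. The annotation also lists 63 NDUF pseudogenes, 4 of which reached the filter, and their summed level was 17.8 to 21.6 TPM in PRMT1 OV and 25.3 to 31.7 TPM in Mock. How reads that match both a gene and its copy were counted was not given in the sources used here.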

How the data were processed

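RNA levels were analysed in 3 PRMT1 OV and 3 Mock libraries, grouped by their titles. The authors deposited TPM per Ensembl gene, with each column scaled to the same total. Per the submitters' processing notes, Trimmomatic 0.36, STAR 2.5.2b, featureCounts and Subread 1.5.2 were used with GRCh38, without roles or order. The annotation, the strand setting and the TPM calculation were not given in the sources used here. Of 57500 identifiers, 56898 were in GENCODE 29, which gave coordinates, exonic lengths and transcript GC content. Multiplied by exonic length, 95.5 to 95.7% of the low values were whole reads within 0.05.

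All genes that reached 1 TPM in 3 or more libraries were tested, over the whole table, on log2(TPM + 1), a scale that understates changes of low genes, with limma 3.58.1 in R 4.3.3 (lmFit, eBayes with trend, no covariate) and Benjamini-Hochberg adjustment at 0.05. The fit was tested on simulated data. Each library was counted as a replicate. Libraries of a group differed by more than counting noise, but this does not show that they came from separate cultures. Alternatives were a pseudocount of 0.1 TPM, no filter, median-of-ratios scaling, quantile normalization, PRMT1 and PRMT1P1 taken out, GC correction, a replicate block, array weights, no variance trend, and libraries left out. An exact permutation test of 3 against 3 cannot go below p = 0.1 and was not used. Members, lists and the libraries standing apart were chosen with earlier results of these data known. A further gene with such a symbol and a further cell type marker are not reported here. Values per library are given for PRMT1, all NDUFAF genes, the core subunits described, the 6 subunits with the lowest and the 4 with the highest fold change, the untested gene, and up to 3 genes with the smallest p of each other list. Promoters are from RefSeq on GRCh38.p14.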

Additional observations from a re-analysis of the deposited data

How the results depend on the processing

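TPM as deposited gave 10 subunits lower and 1 higher, 2 assembly factors lower and 5 higher, and 1325 genes lower and 6190 higher in all. GC correction gave 28 subunits lower and 0 higher, 1 assembly factor higher, medians of -0.45 for the subunits and -0.05 for the assembly factors, and 3883 genes lower and 3575 higher. Median-of-ratios scaling gave 27 subunits lower and 0 higher, 2 assembly factors higher, medians of -0.50 and 0.10, and 3692 genes lower and 3605 higher. Quantile normalization gave 7 subunits lower, 1 assembly factor higher with a median of -0.0029, and 2979 genes lower and 3109 higher. With PRMT1 taken out, 5 subunits were lower and 4 higher with a median of -0.05. In this setting 1 assembly factor was lower, the median of the assembly factors was 0.53, and 880 genes were lower and 7601 higher. Array weights gave 17 subunits lower and 6 higher, and 2838 genes lower and 7819 higher in all. Without a variance trend 1 assembly factor was lower, and without a filter 3 were higher. Without both libraries that stand apart, 4 subunits and 3 assembly factors were higher, and 2115 genes were lower and 5703 higher in all. The cause was not tested.

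Same-numbered libraries did not deviate together (correlations of -0.033, 0.059 and 0.02). With 3 libraries per group, such correlations cannot decide whether the numbers pair libraries. A fit with the replicate number as a block gave 11 subunits lower and 1 higher, with the same assembly factor counts. Under this block NDUFB9 did not pass (adjusted p = 0.0556), and NDUFA3 (0.0426) and NDUFB7 (0.0492) were called lower.

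Leaving out each library in turn gave 7 to 10 subunits lower and 1 to 3 higher with medians of -0.19 to -0.11, and 1 to 2 assembly factors lower and 2 to 4 higher with medians of 0.36 to 0.46. Over all genes it gave 935 to 1520 lower and 5082 to 5634 higher. The count of 3 higher subunits came without Mock replicate 3. The lowest count of higher assembly factors (2) came without Mock replicate 1, and it was 3 without PRMT1 OV replicate 2. The count of lower assembly factors was 1 without Mock replicate 1, Mock replicate 3, PRMT1 OV replicate 1 or PRMT1 OV replicate 3.

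Signs of single genes turned under several settings. All that turned after GC correction or median-of-ratios scaling were positive as deposited. Among them were NDUFAF4 (0.48), NDUFAF7 (0.40) and NDUFA8 (0.32), which had been called higher. NDUFAF6 (0.46), also called higher, turned under quantile normalization. After GC correction the genes that turned were NDUFA12 (-0.36), NDUFA7 (-0.06), NDUFA9 (-0.32), NDUFAF4 (-0.06), NDUFAF7 (-0.03), NDUFB3 (-0.34), NDUFB6 (-0.37), NDUFC2 (-0.28), NDUFS1 (-0.14), NDUFS4 (-0.26) and NDUFV3 (-0.11). After median-of-ratios scaling they were NDUFA12 (-0.28), NDUFA7 (-0.16), NDUFA8 (-0.03), NDUFA9 (-0.24), NDUFB3 (-0.29), NDUFB6 (-0.26), NDUFC2 (-0.25), NDUFS1 (-0.05), NDUFS4 (-0.17) and NDUFV3 (-0.13). Under quantile normalization they were NDUFA7 (-0.16), NDUFA9 (-0.23), NDUFAF6 (-0.01), NDUFAF7 (-0.00015), NDUFC2 (-0.14), NDUFS6 (0.06) and NDUFV3 (-0.09). With PRMT1 taken out they were NDUFA5 (0.05), NDUFAB1 (0.04), NDUFB5 (0.08), NDUFS3 (0.07) and NDUFS6 (0.06), and with array weights NDUFS6 (0.04). Leaving out 1 library turned NDUFA5 (range -0.19 to 0.03), NDUFB5 (-0.19 to 0.07), NDUFC2 (-0.07 to 0.22) and NDUFS3 (0.01) and, without both libraries that stand apart, NDUFB4 (0.01), NDUFC2 (-0.03) and NDUFS6 (0.03). A pseudocount of 0.1 TPM kept the sign and the call of the 44 genes.

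Depth limits the low genes. Recovered reads per library were 105 to 425 for NDUFAF1, 138 to 242 for NDUFAF6 and 177 to 413 for NDUFAF5. TMEM186 had 39 to 234, whereas NDUFB10 had 4303 to 7136.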
